A study of Drosophila melanogaster with 6 samples.

Results

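In embryos of Drosophila melanogaster, a small part of the Jarid2 peaks was crowded into a few stretches of the genome. These stretches are described here. They were chosen by the peak counts themselves: the arms of the chromosomes (2L and 2R, 3L and 3R, X, and the small 4, here the main arms) were divided into windows of 200 kb, and a window was kept where the first Jarid2 replicate (Jarid2 A) had at least 15 peaks and the second (Jarid2 B) at least 7, each peak being placed by its summit. Of 595 windows, 5 met the rule (0.84%). They held 427 of the 12061 peaks of 4 peak lists (3.54%), made up of 196 of the 1916 Jarid2 A peaks, 93 of the 1055 Jarid2 B peaks, 59 of the 5173 Pcl A peaks and 79 of the 3917 Pcl B peaks.

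The peaks come from chromatin immunoprecipitation with sequencing (ChIP-seq) of whole embryos collected at 12 to 24 h. The embryos expressed either Jarid2 or Polycomblike (Pcl) with a BioTAP tag, a tag that permits a first purification on IgG beads followed by another on streptavidin. Each protein had 2 immunoprecipitated libraries, A and B, and 1 input library. The labels give no strain, no driver of the tagged genes and no untagged control, nothing says whether A and B were separate embryo collections, and whole embryos mix all their tissues.

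Jarid2 and Pcl are accessory subunits of Polycomb repressive complex 2, which methylates histone H3 and keeps developmental genes silent. They belong to alternative forms of the complex, one with Jarid2 and one with Pcl, around a common catalytic core. In flies the repressed genes often lie in broad chromatin domains, within which Polycomb proteins are loaded at discrete elements and the histone mark spreads between them.

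The lists carry the authors' coordinates on dm3, the genome build named in the submitters' processing notes. All positions are given on that build, 1-based, and no genes are named, since the gene table at hand belongs to a later release. Because the rule used the Jarid2 counts, every Jarid2 value below is a description of these libraries and carries no test. With 2 libraries for each protein there are 3 ways to split the 4 libraries into pairs. An exact permutation test could not go below a p of 0.333, and no difference between the proteins was tested either. Protein and sequencing lane cannot be told apart, because the peak names of the 2 proteins carry different lanes.

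**Figure D1:**
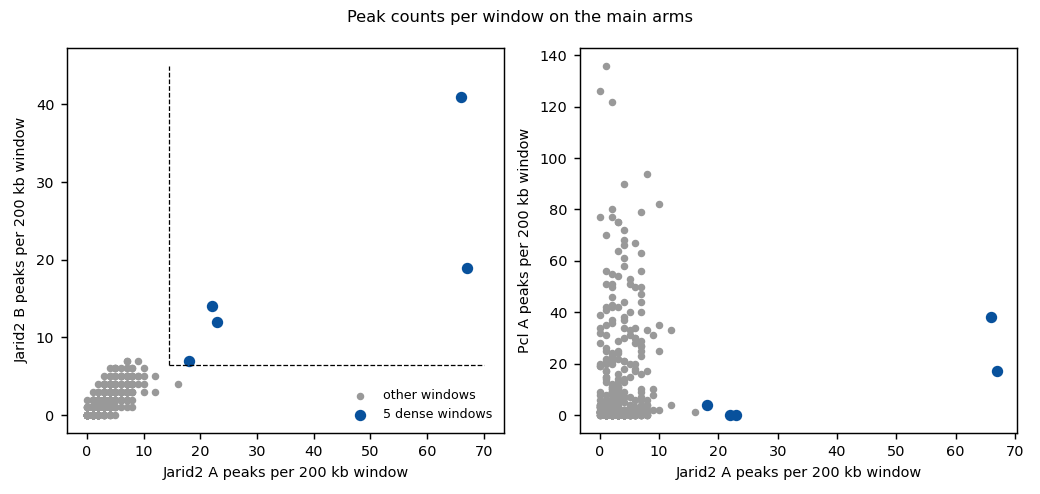
Each point is a 200 kb window of the main arms that holds at least 1 peak, with Jarid2 A peaks on the horizontal axis and Jarid2 B peaks (left) or Pcl A peaks (right) on the vertical axis; dashed lines mark the rule. The 2 densest windows hold 66 and 67 Jarid2 A peaks, far from all others. The window with most Pcl A peaks (136) has 1 Jarid2 A peak, while windows with 94 and 82 Pcl A peaks have 8 and 10.

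The 5 windows fell into an upper pair and a lower group. The window at 14.4 to 14.6 Mb of 2L (the 2L window) had 67 peaks in Jarid2 A and 19 in Jarid2 B. In the window at 8.8 to 9 Mb of 2R (the first 2R window) the numbers were 66 and 41. The window at 14.2 to 14.4 Mb of 2R (the second 2R window) had 23 and 12. Next to each other on 3L, the window at 17.8 to 18 Mb (the first 3L window) had 22 and 14, and that at 18 to 18.2 Mb (the second 3L window) had 18 and 7. A typical window outside this group held far fewer, with a median of 2 Jarid2 A peaks and 1 Jarid2 B peak. By Jarid2 A count these were the 5 highest windows of the arms. By Jarid2 B count they were also highest, but the second 3L window, on the threshold of that list, was tied at 7 peaks with 3 others. Just outside lay a 3L window at 14.6 to 14.8 Mb with 16 and 4 peaks, an X window at 7.4 to 7.6 Mb with 12 and 5, and 3 windows with 7 Jarid2 B peaks but only 7 to 9 in Jarid2 A.

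Crowding did not stop at single windows of the grid. When Jarid2 A peaks were joined into runs wherever neighbouring summits lay at most 10 kb apart, the arms held 1231 runs, 919 of them a lone peak. Only 5 runs had 10 or more peaks, and all 5 lay in the dense windows, 3 of them on 2L. The longest run elsewhere had 7 peaks. Runs were joined from the Jarid2 A summits that the rule had counted. That the longest lay in the dense windows largely follows from the rule and adds no support. The run that held most Jarid2 A peaks of a window is called its stretch below. In the second 2R window 2 runs tied at 8 of the window's peaks, and the earlier one was taken. The 3L windows had 1 stretch in common, cut by the window boundary, so that the 5 windows correspond to 4 stretches and should not be counted as 5 separate places.

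**Figure D2:**
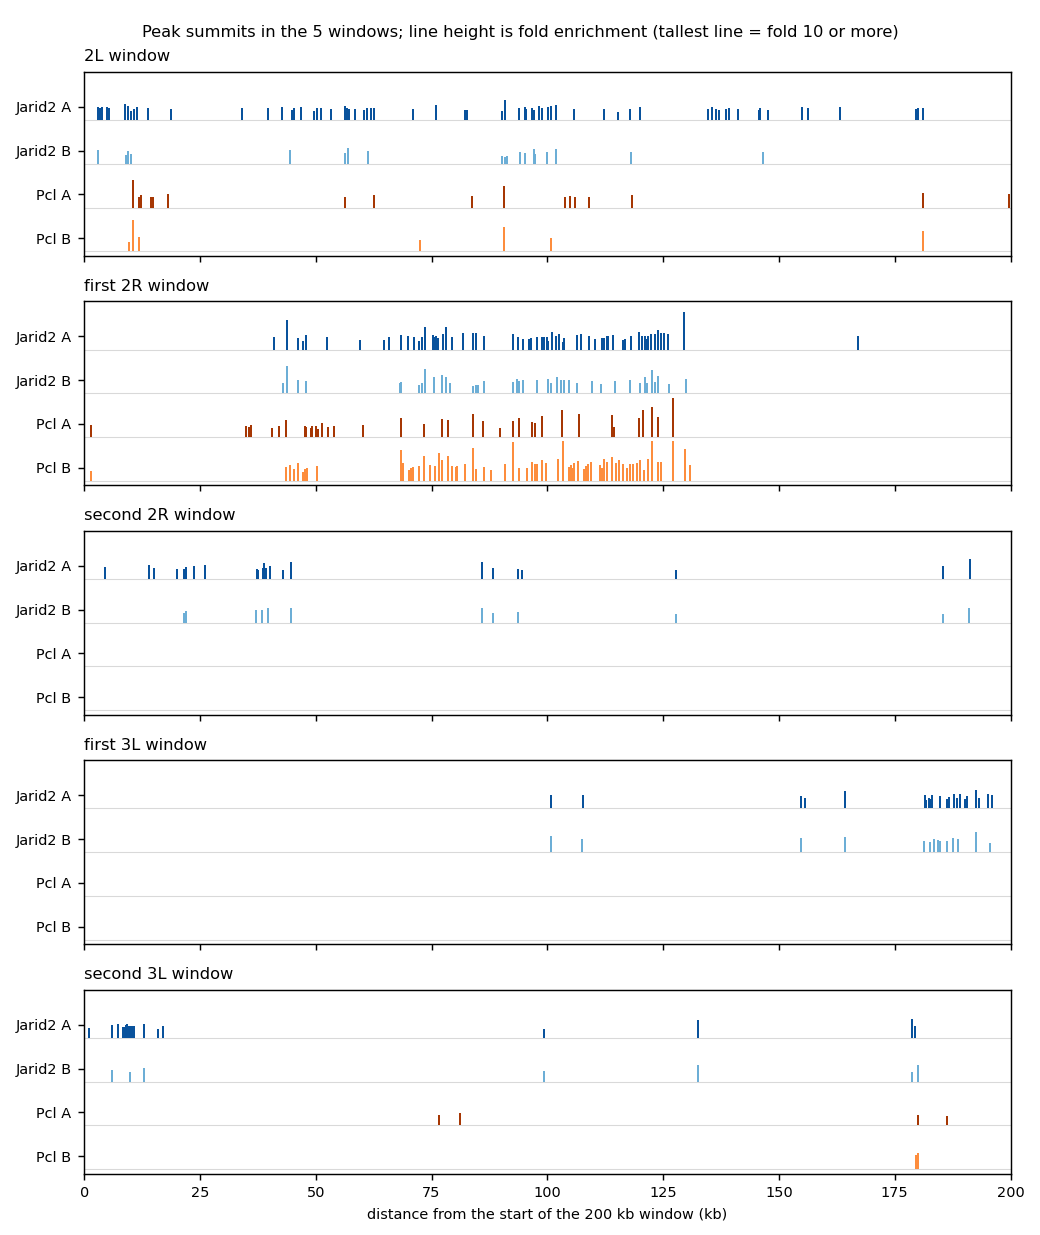
Each vertical line is a peak summit, placed by its distance in kb from the start of its 200 kb window, with a height proportional to the fold enrichment up to 10, in one row for each of the 4 lists. In the first 2R window all 4 lists fill the same 88 kb, whereas the second 2R window and the first 3L window have no Pcl peak, and the 3L stretch runs across the boundary of its 2 windows.

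The first 2R window held the stretch with the most peaks of both proteins. Its 65 Jarid2 A peaks ran from 8841054 to 8929472, over 88.4 kb, and covered 42.1% of that length. Within the same limits lay 40 Jarid2 B summits, 33 Pcl A summits and 67 Pcl B summits, covering 39.0%, 70.1% and 44.2% of it. Runs were also joined in each list by itself, and the runs that met the stretch ended close together. Jarid2 A had its last summit at 8929472 and Jarid2 B at 8929933, while Pcl A ended at 8927117 and Pcl B at 8930783. The first summits of the 4 lists, in the same order, were at 8841054, 8842855, 8834936 and 8843532.

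Jarid2 A had high peaks at both ends of this stretch and Jarid2 B only at its start, so the replicates put their highest peak at opposite ends. The strongest Jarid2 A peak of the window, which was the strongest of its whole list, lay at 8926505 to 8930741 with a fold enrichment of 9.60. There Jarid2 B had a fold of 3.60, beside an upper quartile of 3.61 for its peaks on the main arms outside the windows. The strongest Jarid2 B peak of the window, at rank 3 of 1055, lay at 8843037 to 8845512 with a fold of 6.80 and its summit at 8843726. At that end Jarid2 A reached 7.54 with its summit at 8843732. Pcl was highest at the far end in both replicates, with a fold of 15.7 at 8927117 in Pcl A and 15.6 at 8927095 in Pcl B. Folds of separate lists rest on separate backgrounds, so they rank sites within a list and are not compared between lists.

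The 2L window was as crowded as the first 2R window in Jarid2 A but not in the other lists. Each of its 10 steps of 20 kb held at least 1 Jarid2 A peak, with a highest count of 12, while Jarid2 B had no peak in 4 of them. Its stretch, from 14434066 to 14519983, held 39 Jarid2 A, 14 Jarid2 B, 9 Pcl A and 3 Pcl B summits. The strongest Jarid2 A peak lay at 14490762 to 14491530 with a fold of 5.19. Every other list had a peak at that place. The fold was 2.09 for Jarid2 B, while Pcl A reached 5.41 and Pcl B 6.13. The strongest Pcl site lay outside the stretch, at 14409378 to 14411673, where Pcl A had a fold of 6.98 with its summit at 14410446. The Pcl B peak there had a fold of 7.97 with its summit at 14410455. The Pcl A peak of this site touched 4 Jarid2 A and 2 Jarid2 B peaks. It lay in another run of the window, with 12 Jarid2 A peaks at 14402962 to 14418655.

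On 3L the stretch was the shortest of those with more than 10 peaks in both Jarid2 lists, and it had no Pcl peak. It ran from 17981576 to 18017111, over 35.5 kb, with 31 Jarid2 A and 12 Jarid2 B summits. The window boundary left 17 of the Jarid2 A summits in the first 3L window and 14 in the second. Jarid2 A peaks were closer together here than in any other of the 4 stretches, at 8.72 summits per 10 kb. The strongest Jarid2 A peak of the first 3L window lay at 17992297 to 17992708 with a fold of 4.65, and the strongest Jarid2 B peak was the same site, with a fold of 5.14. The nearest Pcl A summit beyond the stretch was 59.5 kb away and the nearest Pcl B summit 162 kb away. In the second 3L window the strongest Jarid2 A peak, at 18178438 to 18178852 with a fold of 4.92, lay outside the stretch. The few Pcl peaks of that window, 4 in Pcl A and 2 in Pcl B, also lay outside it. The strongest of Pcl A, at 18081204 to 18081366 with a fold of 3.18, had no Jarid2 peak.

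The second 2R window was a looser group by its median gap between Jarid2 A summits, 2.05 kb, the largest of the 5 windows. Its stretch, from 14196719 to 14226156, held 9 Jarid2 A summits and began just before the window. The tied run of 8 Jarid2 A peaks followed at 14237281 to 14244711. It was tighter, over 7.43 kb beside the 29.4 kb of the stretch, and held 2 Jarid2 B summits and no Pcl summit. The rest were scattered up to the end of the window. The strongest Jarid2 A peak, at 14390911 to 14391336 with a fold of 5.001, was among the scattered ones, and Jarid2 B had a fold of 3.83 there. No Pcl summit lay in the window. The nearest Pcl A summit, with a fold of 4.17, was 2.74 kb before the window, and the nearest Pcl B summit, with a fold of 4.1002, was 2.71 kb before it. Both lay 0.540 and 0.568 kb after the first Jarid2 A summit of the stretch, so the absence of Pcl holds for the window and for the tied run but not for the earlier one.

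Pcl was thus present in both lists in 3 of the 5 windows and absent from both lists in 2. Among all 595 windows 248 (41.7%) had a peak in both Pcl lists. The presence in the second 3L window rests on weak peaks, since none of its 4 Pcl A and 2 Pcl B peaks had a q at or below 1e-05, and at that q Pcl was present in 2 of the 5 windows. Pcl A had 17 peaks in the 2L window, 38 in the first 2R window and 4 in the second 3L window. The corresponding Pcl B counts were 7, 70 and 2. Only the first 2R window ranked high among all windows by Pcl count, at 45th in Pcl A and 8th in Pcl B, whereas the 2L window ranked 95th and 113th.

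Overlap of single peaks, counted from 1 bp, separated the first 2R window from the others. In that window 60 of 66 Jarid2 A peaks (90.9%, Wilson 95% interval 81.6 to 95.8%) and 41 of 41 Jarid2 B peaks (91.4 to 100%) touched a Pcl peak of either list. In the 2L window the numbers were 11 of 67 (16.4%, 9.42 to 27.1%) and 6 of 19 (31.6%, 15.4 to 54.0%). The second 3L window had 1 of 18 and 1 of 7, and the remaining 2 windows had none of 45 Jarid2 A and none of 26 Jarid2 B peaks. Over all 5 windows 72 of 196 Jarid2 A peaks (36.7%, 30.3 to 43.7%) and 48 of 93 Jarid2 B peaks (51.6%, 41.6 to 61.5%) touched Pcl. The shares over the whole lists were 22.2% for Jarid2 A and 22.6% for Jarid2 B. One window decides that pooled value: without the first 2R window the shares were 9.23% of 130 Jarid2 A peaks (5.36 to 15.4%) and 13.5% of 52 Jarid2 B peaks (6.68 to 25.3%). The intervals cover counting error only, and neighbouring peaks are not independent. A touch of 1 bp also depends on how much of the ground Pcl peaks cover. Pcl A and Pcl B covered 70.1% and 44.2% of the first 2R stretch, beside 3.88% and 1.79% of the 2L stretch. How much of the difference in shares goes with this coverage was not tested.

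**Figure D3:**
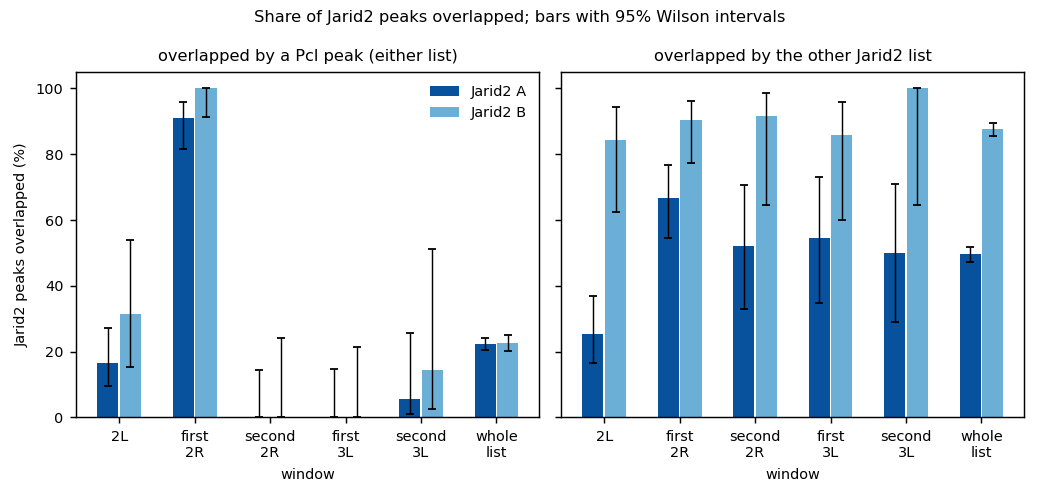
Bars give the share of Jarid2 A and Jarid2 B peaks (in %) that are overlapped by a Pcl peak of either list (left) or by a peak of the other Jarid2 list (right) in each window and in the whole list, with 95% Wilson intervals. The overlap with Pcl is 90.9% and 100% in the first 2R window and at most 31.6% elsewhere, whereas most Jarid2 B peaks are found again in Jarid2 A in every window.

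Seen from Pcl, 30 of 59 Pcl A peaks (50.8%) and 60 of 79 Pcl B peaks (75.9%) in the windows touched a Jarid2 peak of either list. The whole lists gave 5.63% and 7.89%. The windows were chosen for many Jarid2 peaks, so nothing is read from that difference. Pcl A peaks that touched Jarid2 had a median fold of 4.41 and a median width of 1345.5 bp, and those that did not had 2.78 and 223 bp. For Pcl B the medians were 4.502 and 444 bp with Jarid2 and 3.62 and 242 bp without. The first 2R window held 23 of the 30 touching Pcl A peaks and 53 of the 60 touching Pcl B peaks. There the touching Pcl A peaks had a median width of 1821 bp. In the 2L window Pcl A had 323 bp with Jarid2 and 176 bp without. The second 3L window went the other way, with 183 bp in 1 touching peak and 227 bp without. Whether width bears on the overlap was not tested.

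Touching peaks did not always have a common centre. In the first 2R window the median distance between a Jarid2 A summit and that of the Pcl peak it touched was 831 bp for Pcl A and 173 bp for Pcl B. Summits lay within 100 bp in 5 of 60 pairs with Pcl A and 19 of 50 pairs with Pcl B. Pcl A was called there in wide blocks, with a median width of 554 bp and a widest peak of 9207 bp, against 385 bp and 3139 bp in Pcl B.

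Peaks of the 4 lists were also merged where they touched. Over the main arms this gave 6950 regions, of which 1.61% were called in all 4 lists, 10.3% in both Jarid2 lists only and 10.7% in Jarid2 A only. The windows were chosen for their Jarid2 peaks, so their counts are set beside these shares as a description. The first 2R window gave 40 merged regions, of which 15 were called in all 4 lists and none in both Jarid2 lists alone. The 2L window gave 75 regions, of which 45 were called in Jarid2 A alone and only 2 in all 4 lists. In the second 2R window 11 of 23 regions were called in both Jarid2 lists and neither Pcl list, in the first 3L window 12 of 24, and in the second 3L window 6 of 19. The regions of all 4 lists in the first 2R window therefore rest on every library, and most regions of the 2L window rest on Jarid2 A only.

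Broad Jarid2 peaks were found in the first 2R window and in no other of the 5. In it 8 of 66 Jarid2 A peaks and 10 of 41 Jarid2 B peaks were wider than 1000 bp, out of 20 and 19 such peaks in the whole lists. The widest measured 4237 bp and 4890 bp. The median width there was 364 bp for Jarid2 A, while Jarid2 B had 506 bp. In the other windows the median ran from 208.5 to 235 bp in Jarid2 A and from 189.5 to 313.5 bp in Jarid2 B, and no peak exceeded 867 bp. On the main arms outside the 5 windows the median was 238 bp and 245 bp. By width the first 2R window had the highest median in both lists, and the 2L window lay among the rest.

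Fold enrichment in the windows was close to that outside. The median over the 5 windows was 3.14 for Jarid2 A peaks and 3.08 for Jarid2 B peaks, beside 3.02 and 2.99 on the main arms outside. Window medians ran from 2.91 in the second 2R window to 3.35 in the first 2R window for Jarid2 A. For Jarid2 B they ran from 2.95 in the 2L window to 3.34 in the first 3L window. Of the 100 peaks with the highest fold, the windows held 7 in Jarid2 A and 6 in Jarid2 B, while they held 10.2% and 8.82% of all peaks of those lists.

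By p-value most Jarid2 peaks of the windows were weaker than the median of their list. Pcl peaks were not, with 31 of 59 in Pcl A (52.5%) and 48 of 79 in Pcl B (60.8%) above that median. The first 2R window held 24 and 45 of those. The 100 peaks with the lowest p included 9 window peaks in Jarid2 A and 7 in Jarid2 B. The windows held 10.2% and 8.82% of these lists. The median −log10 p of the Jarid2 A peaks was 7.52 in the windows and 9.16 in the whole list, and for Jarid2 B it was 6.53 and 8.13. Only 58 of the 196 Jarid2 A peaks (29.6%) and 28 of the 93 Jarid2 B peaks (30.1%) belonged to the stronger part of their list, above the median p. The 2L window was the weakest in this respect, with 7 of 67 Jarid2 A peaks and 2 of 19 Jarid2 B peaks in that part. In the first 2R window it was 32 of 66 and 15 of 41, and the second 3L window was the exception in Jarid2 B, with 4 of 7. When Jarid2 A was shortened to its 1055 strongest peaks, the size of Jarid2 B, the 2L window kept 9 peaks and the first 2R window 37, and the first 2R window alone still met the rule. With peaks of q at or below 1e-05 it was again the only window to meet the rule, although every window kept some such peaks in both Jarid2 lists.

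Fold and p together give back the read count at a summit and the local background that the caller set against it. With a Poisson background, and with the fold taken as the ratio of count and background after 1 was added to each, they returned a whole count for 100% of the peaks of Jarid2 A, Pcl A and Pcl B. In Jarid2 B the summit counts were whole multiples of 0.25, so that each read weighed 0.25, and 1024 of 1055 peaks (97.1%) gave such a count. MACS2, the peak caller named in the submitters' notes, by default scales the larger of the immunoprecipitate and its control down to the smaller, and the summit counts of Jarid2 B alone carry such a scale. Read totals are not in the lists, and which control was used is not given in the sources used here.

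Jarid2 peaks in the dense windows sat on a lower background than other Jarid2 peaks. The median local background was 7.999 reads (quartiles 6.82 and 10.4) for the 196 Jarid2 A peaks in the windows and 13.2 (8.80 and 17.997) on the main arms outside. Summit counts were lower in step, with medians of 27 and 42 reads. In Jarid2 B, over the 91 window peaks with a recovered count, the median background was 7.24 scaled reads inside and 11.6 outside, and the summits had 25.2 and 38.2. Of the window peaks, 84.2% in Jarid2 A and 76.9% in Jarid2 B had a background below the median of their list. For the Pcl peaks in the windows the order was the other way, since only 27.1% of Pcl A and 25.3% of Pcl B lay below the median background of their list. The first 2R window held 38 of those 59 Pcl A and 70 of those 79 Pcl B peaks. In Pcl A the median background was 7.52 in the 2L window and 6.65 in the second 3L window, beside 7.31 in the list. In Pcl B it was 4.47 and 3.39, beside 2.97. Whether the background bears on which peaks were called was not tested.

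**Figure D4:**
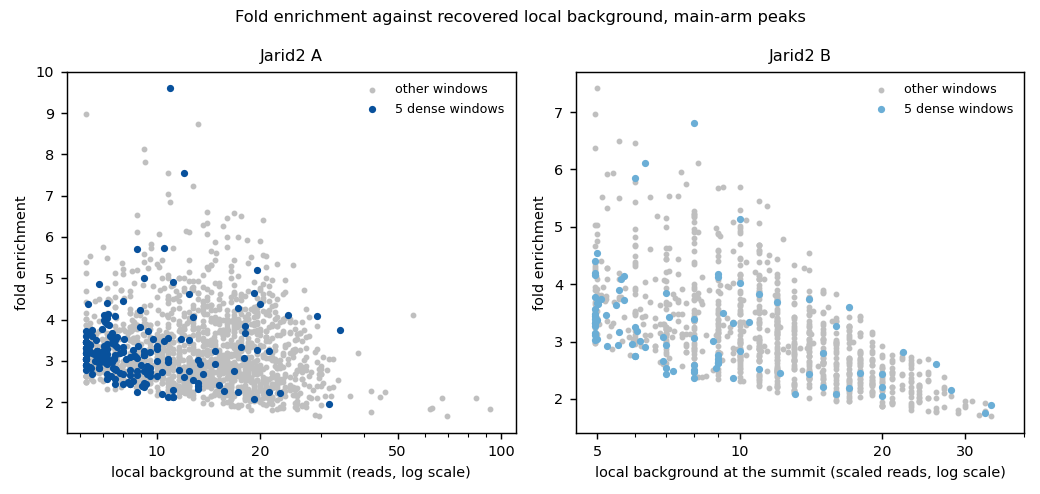
Each point is a Jarid2 peak on the main arms, with the local background at its summit (reads in Jarid2 A, scaled reads in Jarid2 B, log axis) on the horizontal axis and its fold enrichment on the vertical axis; peaks of the 5 dense windows are coloured. The coloured points gather at the low end of the background, with medians of 7.999 and 7.24 against 13.2 and 11.6 for the others, at folds near those of the rest.

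The edges of the stretches differed in sharpness. The first 2R stretch was bounded on both sides in both Jarid2 lists. It held 7.35 Jarid2 A summits per 10 kb, and in the 50 kb on each side there was none before it and 1 after it. The next Jarid2 A summit was 173 kb before the stretch and 37.6 kb after it. Jarid2 B had its last summit 0.461 kb past the end drawn on Jarid2 A. Beyond the outermost summits of its own runs there, it had no further summit for 249 kb before and 295 kb after. Pcl stopped as abruptly at the far end, with the next summit 364 kb on in Pcl A and 592 kb on in Pcl B. On the near side the Pcl A run began 6.12 kb earlier than that of Jarid2 A, and 11 Pcl A and 7 Pcl B summits lay in the 50 kb before the stretch, so that side was sharper for Jarid2 than for Pcl.

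The 3L stretch was followed by a longer empty interval than it was preceded by. After it, no Jarid2 A or Jarid2 B summit followed for 82.1 kb in either list. Before it, 3 Jarid2 A and 3 Jarid2 B summits lay within 50 kb, the nearest in Jarid2 A at 17.4 kb. The nearest of Jarid2 B, at 0.157 kb, opened its own run there, and before that run the next summit was 17.2 kb away. The 2L stretch passed into flanks that also held many Jarid2 A peaks. It had 4.54 Jarid2 A summits per 10 kb, and 12 summits before and 13 after it within 50 kb gave a flank density of 2.50 per 10 kb. Those flank summits were the other runs of the window, 15.4 kb before and 14.8 kb after the stretch. A joining gap of 20 kb would take them in, so these edges depend on the gap chosen. Jarid2 B had 1.63 summits per 10 kb inside and 0.5 in the flanks, from 14 summits inside, 4 before and 1 after. The second 2R stretch had no Jarid2 A summit in the 50 kb before and 8 in the 50 kb after, which were those of the tied run. In Jarid2 B it held 2 summits, with 1 in the 50 kb before and 4 in the 50 kb after it, so it was no denser than its far flank. The limits were drawn on Jarid2 A, so an empty margin of 10 kb around each stretch follows from its definition, and the wider margins describe the data.

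**Figure D5:**
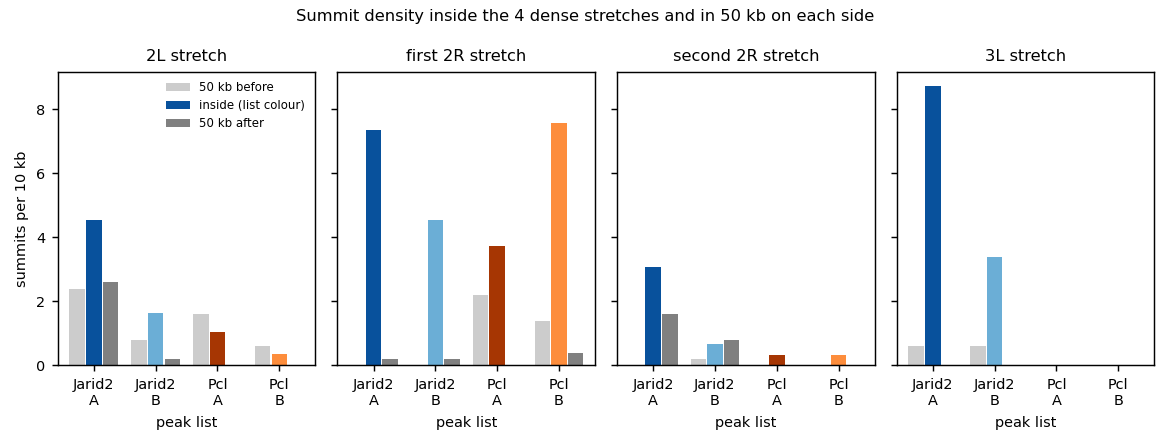
Bars give the number of summits per 10 kb in the 50 kb before each of the 4 stretches (light grey), inside it (colour of the list) and in the 50 kb after it (dark grey), for the 4 peak lists. Inside the first 2R stretch Jarid2 A has 7.35 and Pcl B 7.58 summits per 10 kb with almost none after it, while the flanks of the 2L stretch hold 2.50 Jarid2 A summits per 10 kb on average.

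Replicates differed in how many peaks they gave, and less in where Jarid2 B peaks lay. Jarid2 A had 2.11 times as many peaks as Jarid2 B over the 5 windows, with a ratio of 3.53 in the 2L window and from 1.57 to 2.57 in the other 4. The whole lists held 1916 and 1055 peaks, and the rule had selected on these window counts. Of the Jarid2 B peaks in the windows 83 of 93 (89.2%, Wilson 95% interval 81.3 to 94.1%) touched a Jarid2 A peak, where the whole list gave 87.8%. The window counts were 16 of 19 on 2L, 37 of 41 and 11 of 12 on 2R, and 12 of 14 and 7 of 7 on 3L. In the other direction 94 of 196 Jarid2 A peaks (48.0%, 41.1 to 54.9%) touched a Jarid2 B peak, where the whole list gave 49.6%. The 2L window had the lowest share, 17 of 67 (25.4%, 16.5 to 36.9%), and the first 2R window the highest, 44 of 66 (66.7%, 54.7 to 76.8%). With q at or below 1e-05 in both lists these shares were 1 of 16 (6.25%) and 17 of 44 (38.6%), again the lowest and the highest of the 5 windows. Both pooled shares were close to those of the whole lists. Without the first 2R window 38.5% of 130 Jarid2 A peaks touched Jarid2 B (30.5 to 47.0%).

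Where the replicates touched, their summits lay close together. Over 83 Jarid2 B peaks the median distance to the summit of the Jarid2 A peak was 42 bp, and 53 of the pairs lay within 100 bp. Pairs had to overlap and the nearest summit was taken, which favours short distances. The folds of the 83 pairs had a Spearman correlation of 0.173. By window it was -0.206 on 2L and 0.0836 in the first 2R window. In the second 2R and first 3L windows it was 0.609 and 0.734, over 11 and 12 pairs. The Jarid2 A peaks found in Jarid2 B had a median fold of 3.38 and a median width of 351 bp. Those not found had 3.01 and 201 bp, and their median −log10 p was 6.71 against 9.48. By width the difference was largest in the first 2R window, with 504 bp found and 200 bp not found. Only the second 2R window did not show it, with 231.5 bp and 235 bp. In the 2L window 50 Jarid2 A peaks were not found in Jarid2 B, with a median fold of 2.98 and a median −log10 p of 6.64. These unmatched peaks of the 2L window, which make up 50 of the 102 unmatched peaks in the 5 windows, had a median −log10 p below the 9.16 of their list. The 17 Jarid2 A peaks of that window found in Jarid2 B also lay below it, with a median of 7.70. The 10 Jarid2 B peaks with no Jarid2 A counterpart had a median fold of 3.07, and the 83 matched ones had 3.08.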

How the data were processed

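Peak lists of 4 immunoprecipitated libraries were used, and the 2 input libraries were not analysed here. Per the labels' protocols, embryos were fixed with 3% formaldehyde for 30 min, and libraries of 250 to 500 bp were amplified with 10 to 12 cycles of PCR. The submitters' processing notes name Trimmomatic 0.36, Bowtie 1.2.2, deepTools 3.0.2 and MACS2 2.1.1 and the build dm3, without their settings. The authors deposited 1 list for each library in the 10 columns of the narrowPeak layout. Its fold enrichment is a linear ratio, and it also gives −log10 p, −log10 q and a score, the whole part of 10 times −log10 q, as deposited. Total reads are not in the lists, so depth enters only as the recovered summit counts.

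Samples were grouped by their titles. Windows of 200 kb started at position 0. Overlaps were counted from 1 bp, and Wilson 95% intervals cover counting error only. Runs joined summits at most 10 kb apart. For summit counts, whole counts up to 2000 that gave both fold and p were searched with a relative tolerance of 0.001. In Jarid2 B the weight of a read was first fitted to the 255 peaks with 1 solution, all of which (100%) were then whole within 0.01 reads. Regions named are every window of the rule with its strongest Jarid2 A and Pcl A peaks, and the strongest Jarid2 B and Pcl B peaks, runs and merged regions were added. The members and lists were chosen with earlier results of these data known. Alternatives were a grid shifted by 100 kb, q at or below 1e-05, Jarid2 lists of equal size, overlap of 50%, summits within 500 bp, other gaps and flanks, and leaving out each library. Window rule, overlaps, runs and count recovery were tested on simulated data. The work was done in Python 3.11.15, with pandas 2.3.3 for tables, scipy 1.17.1 and numpy 2.4.6 for the counts and matplotlib 3.10.9 for plots.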

Additional observations from a re-analysis of the deposited data

How the results depend on the processing

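Of 55 alternatives to the values that answer a comparison, 35 stayed within their limit and 20 moved; none of these values had a test. Of 65 alternatives to values of single windows and of the Pcl widths, folds and edges, 20 moved. Shifting the grid by 100 kb again gave 5 windows, each overlapping one described here, with the first 2R stretch cut by a boundary, the 3L stretch whole and peaks of both Pcl lists in 4 windows. Peaks with q at or below 1e-05 left 1 window, as did Jarid2 lists of equal size, and leaving out a Jarid2 library gave 6 (without B) to 8 (without A). With the stricter q the windows held fewer peaks, and the Jarid2 A share found in Jarid2 B was 31.5%, the Jarid2 A share touching Pcl 47.2%, the median widths 355 and 549 bp and the median folds 3.53 and 3.87 in Jarid2 A and B. Leaving out the first 2R window, which was chosen after seeing the data, gave 38.5% of Jarid2 A found in Jarid2 B, 9.23% and 13.5% of Jarid2 A and B touching Pcl, and a median Jarid2 A fold of 3.05. Leaving out a Pcl library gave 29.6% to 36.2% of Jarid2 A touching Pcl, the lower value without Pcl A. The share of summits inside the stretches, among those in stretches and flanks, was 79.6% for Jarid2 A and 82.9% for Jarid2 B. It was 47.0% and 41.2% with gaps up to 5 kb, 96.3% and 91.9% with gaps up to 20 kb, and 50.5% and 67.0% with stretches drawn on Jarid2 B. Gap and list define the stretch, so these shares follow its limits; for the other moves the cause was not tested.

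With a replicate block by letter, the mean share of Jarid2 peaks touching Pcl was 40.7%, beside 40.6% ± 9.70 (SD over 4 pairs of lists) without it and 40.6% with crossed letters. Same-letter deviations in window counts had a correlation of 0.00655 over 558 windows, and the labels do not tie the letters.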
